A study of Mus musculus with 10 samples.

Results

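The genes for the potassium, sodium and calcium channel subunits of the developing cortex were examined in cells with and without Cdkn1c. Members were chosen by symbol alone. They were the potassium channel subunits with a symbol of the form Kcn, the pore-forming and beta subunits of voltage-gated sodium channels (Scn), the pore-forming, beta and gamma subunits of voltage-gated calcium channels (Cacna1, Cacnb, Cacng), the Hcn pacemaker channels, and the sulfonylurea receptors Abcc8 and Abcc9. The rule found 134 members among 53379 genes. RNA was sequenced from 400 sorted cells of the dissected neocortex per library, at embryonic day 16 (E16), with 1 embryo per library. There were 7 control embryos of the genotype MADM-7-GT/TG; Emx1-Cre/+ and 3 cKO embryos, in which the GT and the TG homolog each also carried Cdkn1c-flox, again with Emx1-Cre/+. Both groups thus carried the MADM-7 cassettes, which label sparse cells by recombination between the chromosome 7 homologs, and Emx1-Cre, which is active in the progenitors of cortical projection neurons. In the cKO the gene was thus deleted in the Emx1+ lineage and not in the rest of the embryo. Green, red and yellow labelled cells were sorted together. The mice were of a mixed C57BL/6J and CD1 background, while the sample labels name CD1.

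Voltage-gated sodium and calcium channels open when the membrane is depolarized, and potassium channels bring it back to rest or hold it there. Most of these channels are built from a pore-forming subunit and auxiliary subunits that set its traffic and gating. In the embryonic cortex the same genes are switched on in steps as newborn neurons leave the ventricular zone and become excitable, and calcium and potassium currents are also present in progenitors. Cdkn1c encodes p57KIP2, a cyclin-dependent kinase inhibitor expressed from the maternal allele.

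Reads on genes ran from 1738220 to 3362487 per library. Levels are given as CPM, reads per 1000000 reads on the 11551 genes that averaged 10 reads or more. Library totals were scaled by TMM (trimmed mean of M values). Fold changes are log2 of cKO over control with their standard error (SE) from edgeR's quasi-likelihood test. The p were adjusted by Benjamini-Hochberg over the same 11551 genes. Cdkn1c itself was at 10.8, 3.94 and 7.64 CPM in cKO 1, 2 and 3, and at 67.5, 96.0 and 131 CPM (lowest, median and highest) in the controls. The groups did not overlap, and the log2 fold change was -3.66 (SE 0.31, edgeR adjusted p = 3.7e-06). The counts used hold 52.8% of the Cdkn1c reads counted on either strand, and the log2 fold change was -3.69 with the strand columns summed. Of the marker lists for cell types, all 5 Cajal-Retzius markers were called higher in cKO, with log2 fold changes of 2.71 for Reln and 2.69 for Trp73, and their summed level was 534 to 643 CPM in cKO and 16.3 to 161 CPM in controls. Among 7 projection neuron markers 3 were called lower, Neurod2 and Neurod6 among them, with a sum of 4122 to 5921 CPM in cKO and 6660 to 9314 CPM in controls. Among 7 interneuron markers Dlx2 was called higher. No marker of radial glia, intermediate progenitors or blood was called, nor was the 1 tested of 4 oligodendrocyte precursor markers or the 2 tested of 4 for choroid plexus and hem. Markers of endothelium, pericytes and microglia were too low to test. Their sums reached 18.1 CPM for endothelium in cKO 2 (controls up to 2.91), 11.5 CPM for pericytes in cKO 3 (controls up to 5.82) and 18.2 CPM for microglia in cKO 3 (controls up to 4.68). The blood markers reached 2270 CPM in cKO 1 and 1805 CPM in 1 control. The part of these cell types in the channel results was not tested. In such bulk libraries, fewer cells of a type and less RNA per cell cannot be told apart.

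Of the 134 members, 16 had no read in any library and 52 had reads but fell below the limit of 10 on average, which left 66 for the test. The cKO libraries had higher levels of Kcnip2, an auxiliary subunit of Kv4 potassium channels, and of Cacng5, a gamma subunit that also binds AMPA receptors. They had lower levels of Abcc8 and Kcnj11, the receptor and the pore of the ATP-sensitive potassium (KATP) channel. These 4 were the only members called at an adjusted p under 0.05 in edgeR, and DESeq2 and limma-voom called the same 4 and no other. The 2 called higher were 3.03% of the tested members, beside 2.27% of all tested genes. The 2 called lower were likewise 3.03%, beside 0.883% of all tested genes, and calls in either direction made up 3.15% of all tested genes. At an unadjusted p under 0.05, 12 members were higher (18.2%, beside 9.25% of all tested genes) and 6 were lower (9.09%, beside 7.11%). All 3 cKO libraries lay above all 7 controls for 4 members (6.06%, beside 3.32%) and below them for 4 (6.06%, beside 2.68%). These shares are counts over a list of genes and were not tested. The median log2 fold change of the 66 was 0.065 and that of all tested genes 0.011, with 35 members above 0 and 31 below. The median SE was 0.37 for the members and 0.27 for all tested genes. For 18 of the 66 the 95% interval stayed within 1 log2 unit of 0, and the intervals of the other 48 reached a 2-fold change in at least 1 direction. Among the tested members, 1 had a control mean and 4 had a cKO mean under 10 reads.

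**Figure D1:**
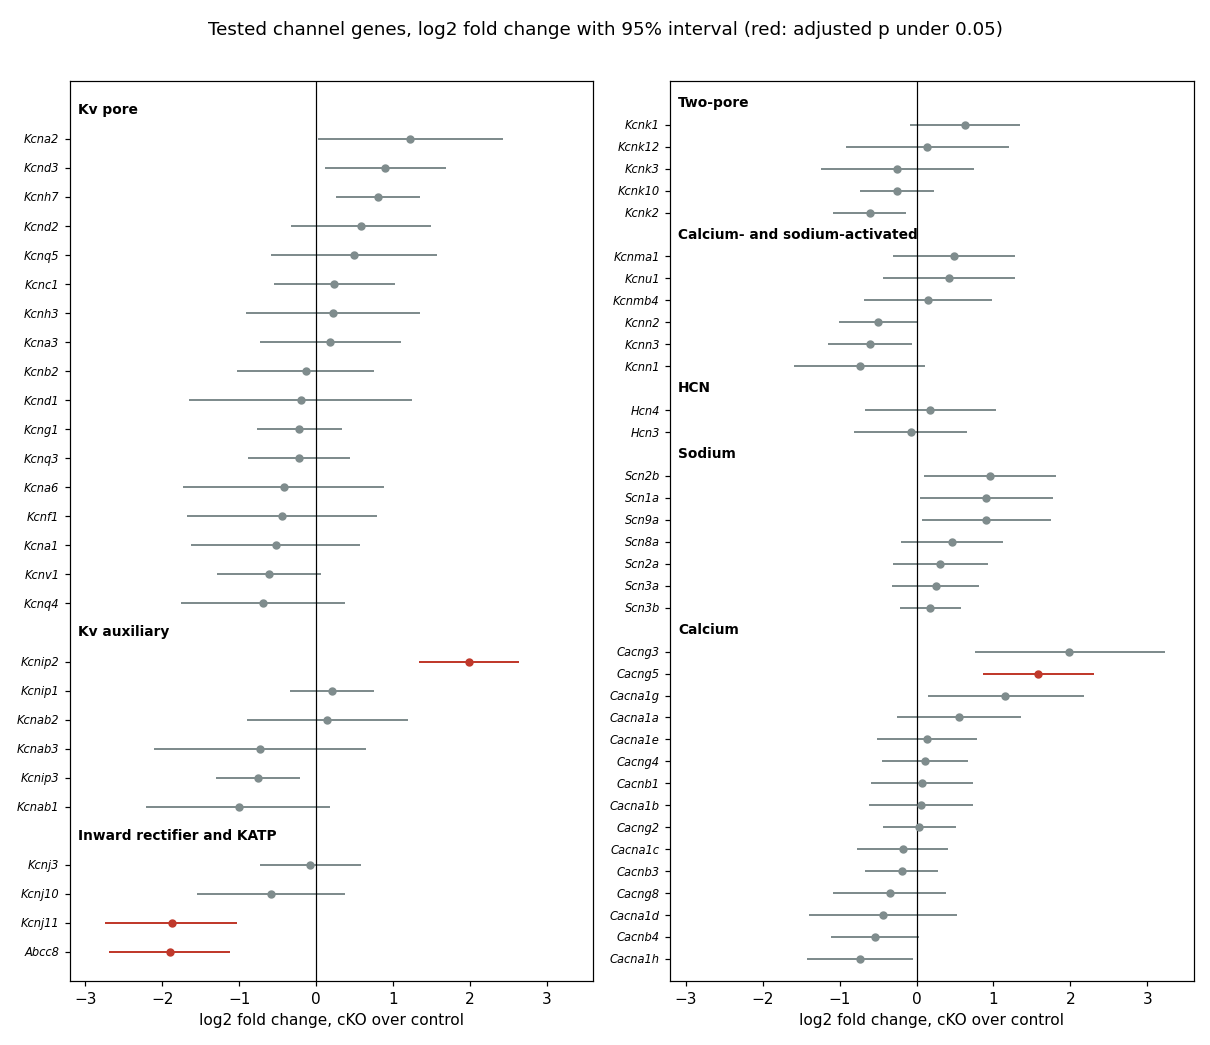
Log2 fold change of cKO (n = 3) over control (n = 7) for 62 of the 66 tested channel genes (points) with its 95% interval (bars), by class on a linear axis; red marks an adjusted p under 0.05 in edgeR. Kcnip2 and Cacng5 lie to the right of 0, Abcc8 and Kcnj11 to the left, and all 7 sodium channel genes drawn lie to the right with none called.

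The libraries differed in the share of uniquely aligned reads that fell outside genes. In 1 set (cKO 3 and control 1, 2, 6 and 7) it was 5.47 to 8.64%, and in the other (cKO 1, cKO 2 and control 3, 4 and 5) 12.8 to 16.7%. No label gives a batch that matches this. For the 4 called members, whose groups did not overlap, the direction within each set was fixed beforehand, so that the within-set ratios of the cKO mean to the control mean show size alone. Kcnip2 was 5.65-fold and 3.21-fold of control, Cacng5 3.12-fold and 4.20-fold, Abcc8 0.144-fold and 0.329-fold, and Kcnj11 0.470-fold and 0.192-fold (smaller share, then larger share). The smaller set held only 1 cKO library, so no test was made within it. cKO 1 and control 3 each held the highest level of 14 of the 66 members (21.2%), where they held the highest level of 18.1% and 9.83% of all tested genes. cKO 3 held the lowest level of 16 members (24.2%, beside 9.82% of all tested genes).

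The promoters of the 2 members called higher are shown to give the sequence around their starts. They are RefSeq windows of 250 bases before to 50 bases after the start on GRCm38.p6, which holds windows for 97 of the 134 members. The window of Kcnip2 is chr19:45816014-45816313 (minus strand) and that of Cacng5 is chr11:107915006-107915305 (minus strand). Capitals mark GGGCGG on either strand, the letters of the GC box bound by Sp1.
Kcnip2: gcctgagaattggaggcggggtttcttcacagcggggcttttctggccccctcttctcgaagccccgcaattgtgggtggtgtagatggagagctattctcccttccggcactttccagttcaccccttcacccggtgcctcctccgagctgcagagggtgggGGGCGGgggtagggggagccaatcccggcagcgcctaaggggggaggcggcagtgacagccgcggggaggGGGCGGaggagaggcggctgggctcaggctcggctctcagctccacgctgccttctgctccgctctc
Cacng5: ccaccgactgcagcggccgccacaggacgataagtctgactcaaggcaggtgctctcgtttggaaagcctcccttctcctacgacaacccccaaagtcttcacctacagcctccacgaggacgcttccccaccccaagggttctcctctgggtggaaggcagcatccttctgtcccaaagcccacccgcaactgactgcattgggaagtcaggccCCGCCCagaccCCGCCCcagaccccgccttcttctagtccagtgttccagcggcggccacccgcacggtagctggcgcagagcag
Each window held GGGCGG 2 times, and GC content was 67.0% for Kcnip2 and 63.3% for Cacng5, with a median of 53.0% over all 32544 windows. The motif stood in a window of 57 of the 97 members (58.8%) and of 38.5% of all 26742 genes in the table. The other motifs were also searched on both strands, and none of the 6 contains another. The E-box form CAGATG stood in a window of 23.7% of the members and 19.2% of all genes. Its form CAGCTG stood in 29.9% and 18.4%, the CREB core TGACG in 22.7% and 23.2%, the CCAAT box (letters CCAAT) in 35.1% and 41.0%, and the TATA form TATAAA in 7.22% and 15.6%. The CCAAT letters were found 2 times in the window of Kcnip2 and 1 time in that of Cacng5, in lower case above, and the other 4 were not in these windows. A second RefSeq start of Cacng5, at chr11:107911313-107911612, held none of the 6.

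Auxiliary subunits of voltage-gated potassium channels were represented by 6 tested genes, of which Kcnip2 was called. Kcnip2 (ENSMUSG00000025221.15, chr19:45791839-45816061, minus strand) encodes KChIP2, a calcium-binding protein that brings Kv4 channels to the membrane and slows their inactivation. It was at 47.6, 22.5 and 60.2 CPM in cKO 1, 2 and 3, from 141, 57 and 142 reads. Controls were at 7.62 CPM at the lowest, 10.3 at the median and 14.4 at the highest, from 14 to 44 reads. Every cKO library lay above every control, and cKO 2 was the nearest to them. The mean was 43.4 ± 19.2 CPM (SD, n = 3) in cKO and 10.8 ± 2.86 CPM (SD, n = 7) in controls. The log2 fold change was 1.98 (SE 0.30, edgeR adjusted p = 0.00091).

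The other tested KChIP genes were not called. Kcnip3, which encodes the KChIP3 (DREAM) protein, was at 17.5, 24.0 and 24.2 CPM in cKO and at 24.1, 38.1 and 47.5 CPM (lowest, median and highest) in controls. The groups touched at 1 control, and the log2 fold change was -0.75 (SE 0.25, edgeR adjusted p = 0.13). Kcnip1 was at 53.3, 42.5 and 27.6 CPM in cKO and between 24.3 and 48.9 CPM in controls, with a log2 fold change of 0.20 (SE 0.25, edgeR adjusted p = 0.76). cKO 1 lay above the controls and the other two within them. The difference between the KChIP genes was not itself tested. Kcnip4 had 90 reads in all and was not tested. The 3 Kcnab genes, cytosolic beta subunits of Kv1 channels, were not called, Kcnab2 having a log2 fold change of 0.15 (SE 0.49) and Kcnab3 of -0.73 (SE 0.65). None of the 4 Kcne genes, single-pass membrane auxiliaries, had enough reads.

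Pore-forming subunits of voltage-gated potassium channels were tested for 19 of 40 genes and none was called, with 9 log2 fold changes above 0 and 10 below. Kcnh7, an ether-a-go-go related (Erg) channel, was at 42.5, 44.1 and 36.1 CPM in cKO and at 15.3, 21.4 and 35.7 CPM (lowest, median and highest) in controls. All cKO libraries lay above the controls, by a small margin for cKO 3. The log2 fold change of 0.80 (SE 0.25) did not pass at an adjusted p of 0.098 in edgeR. Kcnd3, a Kv4 pore of the kind that KChIP proteins bind, was at 9.78, 22.5 and 14.8 CPM in cKO and between 4.32 and 12.7 CPM in controls. cKO 1 lay within the controls, and the log2 fold change was 0.90 (SE 0.37, edgeR adjusted p = 0.22). The other tested Kv4 pores, Kcnd1 and Kcnd2, had values of -0.20 (SE 0.68) and 0.59 (SE 0.42).

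Kcna2, a Kv1 channel of axons, rested on few reads, 14, 32 and 8 in cKO and 2 to 26 in controls. Its control levels varied most among the tested voltage-gated potassium channel genes, auxiliaries included, with a coefficient of variation of 83.8%. The log2 fold change was 1.22 (SE 0.56, edgeR adjusted p = 0.28). Kcna3, the pore with the highest control level per kilobase, was at 12.1, 3.94 and 12.3 CPM in cKO and between 3.96 and 13.4 CPM in controls. Its log2 fold change was 0.19 (SE 0.43) with a 95% interval from -0.71 to 1.09. Kcnq3, a subunit of the neuronal M current, had a log2 fold change of -0.22 (SE 0.31).

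**Figure D2:**
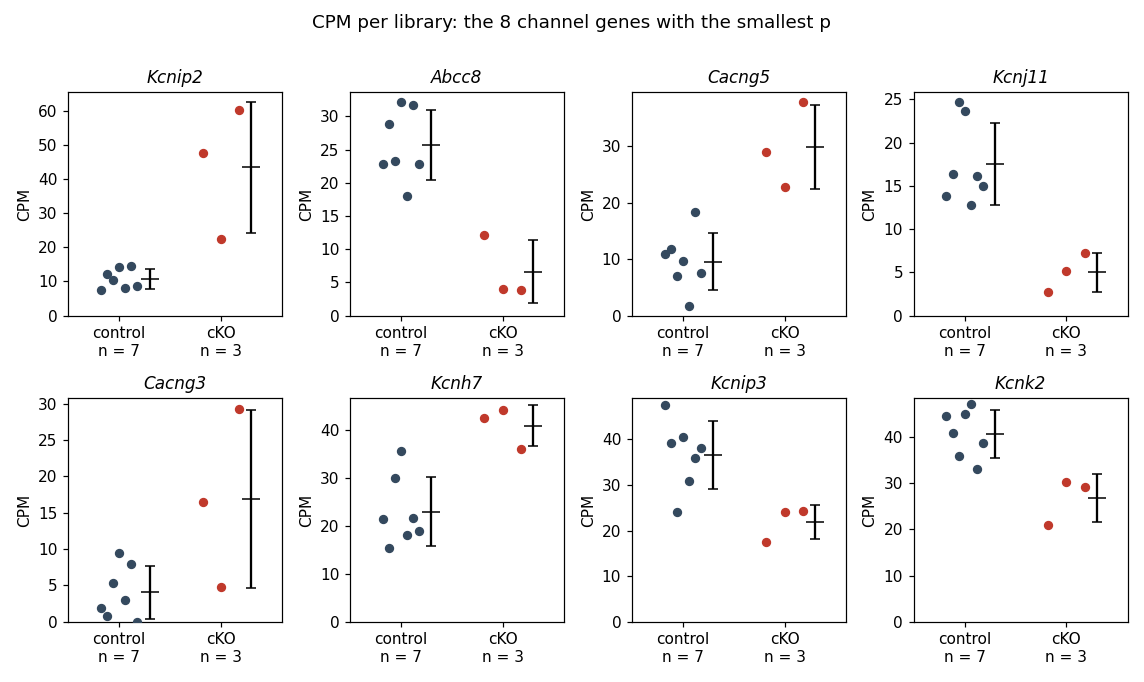
CPM of the 8 channel genes with the smallest p in each library (points; 7 control, 3 cKO) with the mean and SD of each group (black bar and whiskers), on linear axes from 0. For Kcnip2 and Cacng5 all cKO points lie above the controls, for Abcc8 and Kcnj11 all lie below, and for Cacng3 cKO 2 lies among the controls.

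The KATP channel is built from 4 pores and 4 sulfonylurea receptors and closes when ATP is high, which ties the membrane potential to metabolism; its neuronal form pairs Kcnj11 (Kir6.2) with Abcc8 (SUR1). Both genes fell in cKO. Abcc8 (ENSMUSG00000040136.10, chr7:46104523-46180033, minus strand) was at 12.1, 3.94 and 3.82 CPM in cKO 1, 2 and 3, from 36, 10 and 9 reads. Controls were at 18.05 CPM at the lowest, 23.2 at the median and 32.1 at the highest, from 31 to 99 reads. The groups did not overlap, and cKO 1 was the nearest to the controls. The mean was 6.63 ± 4.77 CPM (SD, n = 3) in cKO and 25.7 ± 5.29 CPM (SD, n = 7) in controls. The log2 fold change was -1.90 (SE 0.37, edgeR adjusted p = 0.0065).

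Kcnj11 (ENSMUSG00000096146.2, chr7:46093953-46100764, minus strand) was at 2.70, 5.12 and 7.21 CPM in cKO 1, 2 and 3, from 8, 13 and 17 reads. Controls were at 12.8 CPM at the lowest, 16.2 at the median and 24.7 at the highest, from 22 to 84 reads. Here too every cKO library lay below every control, and cKO 3 was the nearest. The mean was 5.01 ± 2.3 CPM (SD, n = 3) in cKO and 17.5 ± 4.75 CPM (SD, n = 7) in controls, with a log2 fold change of -1.88 (SE 0.40, edgeR adjusted p = 0.015). Without cKO 1 the log2 fold change was -1.55 and the adjusted p 0.071, so that only 1 member was then called lower. The vascular partners of the family were near or at 0. Kcnj8 (Kir6.1) had 4 reads, all in control 2, and Abcc9 (SUR2) had none. That allows up to 0.109 CPM over the 10 libraries together (3 of 27428324 reads on all genes, unscaled, counting error only).

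The 2 KATP genes lie side by side on chromosome 7, with 3758 bases between them and 97.3 Mbp from Cdkn1c, on the chromosome that also carries the MADM-7 cassettes. Of 14 other tested genes within 500 kb, edgeR called 0, and 0 had an unadjusted p under 0.05. DESeq2 and limma-voom called 0 of them as well. Their log2 fold changes ran from -0.83 to 0.82, Kcnc1, a Kv3 channel of fast-firing neurons, being at 0.24 (SE 0.37). Within the cKO group the order of libraries was opposite for the 2 genes. Per kilobase of exon, the ratio of Kcnj11 to Abcc8 was 0.489, 2.86 and 4.16 in cKO 1, 2 and 3, and in controls 1.13 at the lowest, 1.44 at the median and 2.34 at the highest. With 8 to 36 reads behind each cKO value, the cKO ratios are imprecise. Of the 7 projection neuron markers, the 3 that passed the test were lower, as both genes were. The other 4 did not pass, Bcl11b having a log2 fold change of 0.26 (SE 0.30) and Tbr1, Tubb3 and Fezf2 values below 0. A link between these markers and Abcc8 or Kcnj11 was not tested.

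**Figure D3:**
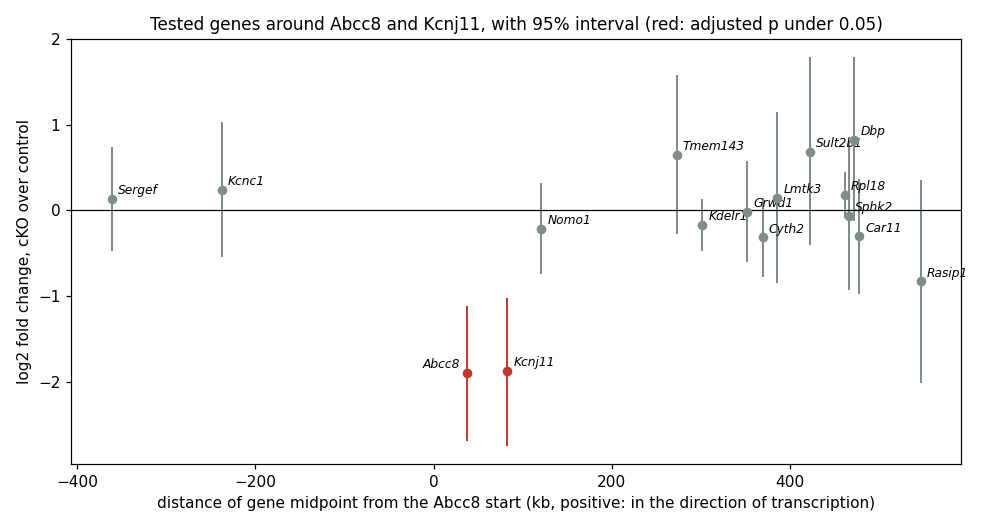
Log2 fold change of cKO (n = 3) over control (n = 7) with its 95% interval for the tested genes around the KATP locus, against the distance of each gene's midpoint from the start of Abcc8 in kb, on linear axes; red marks an adjusted p under 0.05 in edgeR. Abcc8 and Kcnj11 lie near -1.9, and the intervals of the 14 other genes all include 0.

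The remaining 2 tested inward rectifiers were not called by edgeR, DESeq2 or limma-voom. Kcnj3, a G-protein-gated pore, was at 13.8, 18.1 and 9.33 CPM in cKO and between 9.96 and 18.6 CPM in controls, with a log2 fold change of -0.07 (SE 0.31). Kcnj10, an inward rectifier of glia, was at 3.04, 11.8 and 2.97 CPM in cKO and between 6.40 and 14.6 CPM in controls. cKO 2 lay within the controls and the other two below them, with a log2 fold change of -0.58 (SE 0.45, edgeR adjusted p = 0.58). All 4 tested genes of this class had values below 0, and the other 13 members averaged under 10 reads, of which Kcnj6 and Kcnj12 were called higher with no filter on low counts.

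Calcium channel subunits were the largest tested class after the Kv pores, with 15 of 22 genes tested and 1 called. Cacng5 (ENSMUSG00000040373.12, chr11:107874605-107915055, minus strand) encodes gamma-5, a member of the family of transmembrane AMPA receptor regulatory proteins (TARPs). It was at 29.0, 22.8 and 37.8 CPM in cKO 1, 2 and 3, from 86, 58 and 89 reads. Controls were at 1.75 CPM at the lowest, 9.73 at the median and 18.3 at the highest, from 3 to 51 reads. All cKO libraries lay above all controls. The mean was 29.9 ± 7.49 CPM (SD, n = 3) in cKO and 9.57 ± 5.09 CPM (SD, n = 7) in controls, and the log2 fold change was 1.58 (SE 0.34, edgeR adjusted p = 0.014). Without cKO 3 it was 1.396 with an adjusted p of 0.076, and Kcnip2 was then the only member called higher. All 5 Cajal-Retzius markers and the interneuron marker Dlx2 were called higher, as were Cacng5 and Kcnip2. A link between these markers and the channel genes was not tested.

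The other TARP genes were Cacng2, Cacng3, Cacng4 and Cacng8 among those tested. Cacng3 was at 16.5, 4.73 and 29.3 CPM in cKO and at 0, 2.91 and 9.40 CPM (lowest, median and highest) in controls. cKO 2 lay among the controls and the other two above them. Its log2 fold change was as large as that of Kcnip2, 1.98, but with an SE of 0.58 and an adjusted p of 0.075 in edgeR. It passed without cKO 2 (2.40, adjusted p = 0.017), without control 4 (2.36, adjusted p = 0.047) and with no filter on low counts (1.97, adjusted p = 5.6e-05). Cacng4, one of the most abundant members, was at 61.7, 128 and 57.3 CPM in cKO and between 57.3 and 101 CPM in controls. cKO 2 was the highest of all libraries, and the log2 fold change was 0.11 (SE 0.26). Cacng2 (stargazin) was at 34.4, 33.1 and 31.0 CPM in cKO and between 24.2 and 38.3 CPM in controls, with a log2 fold change of 0.04 (SE 0.22) and a 95% interval from -0.43 to 0.50.

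Of the pore-forming calcium channel genes, the T-type (low-voltage-activated) Cacna1g and Cacna1h had the smallest p. Cacna1g was at 18.9, 7.09 and 8.06 CPM in cKO and between 1.09 and 10.7 CPM in controls, and cKO 1 alone lay above the controls. Its log2 fold change was 1.15 (SE 0.47, edgeR adjusted p = 0.22). Cacna1h was at 14.2, 15.4 and 11.5 CPM in cKO and at 16.3, 20.0 and 33.2 CPM (lowest, median and highest) in controls. The groups did not overlap, and the log2 fold change was -0.74 (SE 0.32, edgeR adjusted p = 0.25). The 2 values have opposite signs, and their difference was not tested. The L-type, P/Q-type, N-type and R-type genes Cacna1c, Cacna1d, Cacna1a, Cacna1b and Cacna1e had log2 fold changes from -0.44 to 0.55. Cacnb3, a cytosolic beta subunit and the most abundant member, was at 172, 89.8 and 90.4 CPM in cKO and between 91.4 and 175 CPM in controls, with a log2 fold change of -0.19 (SE 0.22).

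All 8 tested sodium channel genes had log2 fold changes above 0, with a median of 0.68, and none was called, where 51.3% of all tested genes lay above 0. Of them 4 had an unadjusted p under 0.05, all higher, beside 9.25% of all tested genes. Scn9a, the Nav1.7 pore, was at 7.08, 7.49 and 7.21 CPM in cKO and at 2.13, 3.49 and 6.18 CPM (lowest, median and highest) in controls. It was the only tested sodium channel gene whose groups did not overlap, from 17 to 21 reads in cKO and 6 to 21 in controls. The log2 fold change was 0.90 (SE 0.39, edgeR adjusted p = 0.25).

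For Scn1a, the Nav1.1 pore, cKO 1 stood alone at 35.1 CPM against 8.27 and 11.03 in the other cKO libraries and 7.14 to 15.6 in controls. Its log2 fold change of 0.91 (SE 0.40) became -0.07 without cKO 1. Scn2b, a beta subunit, was at 15.2, 11.8 and 8.06 CPM in cKO and between 3.27 and 12.9 CPM in controls, with a log2 fold change of 0.95 (SE 0.40, edgeR adjusted p = 0.24). The more abundant genes of the class had smaller values. Scn2a and Scn3a, the pores of embryonic neurons, had log2 fold changes of 0.31 (SE 0.29) and 0.25 (SE 0.26). Scn3b, the beta subunit with the highest level, was at 89.4, 77.6 and 73.8 CPM in cKO and between 55.1 and 95.8 CPM in controls, with a log2 fold change of 0.18 (SE 0.18) and a 95% interval from -0.21 to 0.57.

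Leak channels of the two-pore-domain family were tested for 5 of 14 genes and none was called. Kcnk2 (TREK-1), opened by stretch and lipids, was at 20.9, 30.3 and 29.3 CPM in cKO and at 33.1, 41.0 and 47.2 CPM (lowest, median and highest) in controls. The groups did not overlap, and the log2 fold change was -0.61 (SE 0.22, edgeR adjusted p = 0.16). An antisense gene overlaps Kcnk2, and the counts used here hold 59.4% of the reads counted on either strand, so its level is uncertain. Kcnk1 (TWIK-1) was at 39.8, 20.1 and 16.5 CPM in cKO and between 9.12 and 25.6 CPM in controls, with cKO 1 alone above them and a log2 fold change of 0.63 (SE 0.34, edgeR adjusted p = 0.37). Kcnk10 (TREK-2) varied least among the controls of the named members, with a coefficient of variation of 8.21%, and had a log2 fold change of -0.25 (SE 0.22). Kcnk3 (TASK-1) was at 4.38, 3.94 and 3.82 CPM in cKO and between 1.16 and 7.91 CPM in controls, with a log2 fold change of -0.25 (SE 0.47).

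Potassium channels opened by calcium or sodium were tested for 6 of 12 genes with 0 calls by edgeR and 1 unadjusted p under 0.05. The 3 small-conductance (SK) genes, Kcnn1, Kcnn2 and Kcnn3, had log2 fold changes of -0.74 (SE 0.40), -0.50 (SE 0.24) and -0.61 (SE 0.25). Kcnn3 was at 25.6, 21.3 and 14.4 CPM in cKO and at 22.1, 32.5 and 37.7 CPM (lowest, median and highest) in controls. cKO 1 overlapped the controls and the other two lay below them, and the adjusted p was 0.23 in edgeR. Kcnn2 was at 33.7, 26.4 and 41.6 CPM in cKO and between 36.7 and 67.1 CPM in controls, where cKO 3 overlapped. Kcnma1, the large-conductance (BK) pore, was at 25.6, 29.5 and 12.7 CPM in cKO and between 7.55 and 31.2 CPM in controls, with a log2 fold change of 0.48 (SE 0.37). Kcnu1, a pH-sensitive relative known from sperm, was at 40.1, 16.2 and 7.21 CPM in cKO and between 9.40 and 25.9 CPM in controls. cKO 1 was the highest and cKO 3 the lowest of all libraries, and the log2 fold change was 0.42 (SE 0.40).

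The Hcn genes, cation channels opened by hyperpolarization, had 3 of 4 members tested and no call. Hcn3 was at 41.1, 16.5 and 9.76 CPM in cKO and between 16.3 and 30.6 CPM in controls. Its cKO libraries lay above, within and below the controls, and the log2 fold change was -0.08 (SE 0.34). Hcn4 had the same order, with 21.6, 9.45 and 5.52 CPM in cKO, 6.40 to 17.5 CPM in controls and a log2 fold change of 0.18 (SE 0.40).

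Levels of different genes were compared per kilobase of exon. In controls Cacnb3 was the highest member at 33.6 ± 6.64 CPM per kilobase (SD, n = 7), then Cacng4 at 21.5 ± 5.60, Scn3b at 13.0 ± 2.47, Kcnip3 at 10.3 ± 2.10 and Kcnk2 at 8.26 ± 1.05. Members that share reads with overlapping genes, such as Kcnk2 and Kcnmb4 (59.4% and 22.1% of their reads held), could stand higher in this order. The first 10 members, which end with Kcnk1, Kcnn2, Hcn3, Kcnip1 and Cacng2, held 49.5% of the summed level of all tested members. For each of the first 24, the range over the 7 controls overlapped that of the next in the order. Of the 5 highest levels as counted, 4 were of auxiliary subunits. The 4 called members stood lower in controls, with Kcnj11 at 4.76 ± 1.29 CPM per kilobase (rank 12), Abcc8 at 3.17 ± 0.65 (rank 24), Kcnip2 at 3.10 ± 0.82 (rank 26) and Cacng5 at 2.497 ± 1.33.

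**Figure D4:**
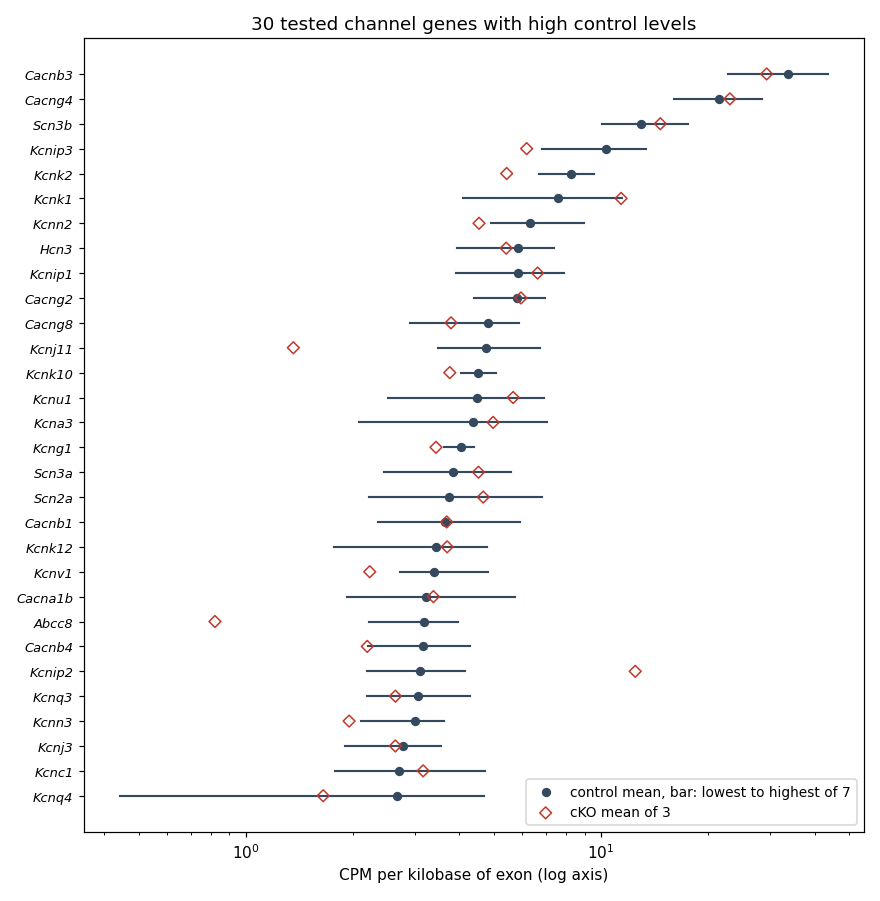
Control mean (filled points) and range over the 7 controls (bars) of 30 tested channel genes with high control levels, in CPM per kilobase of exon on a log axis, with the mean of the 3 cKO libraries (open diamonds). Cacnb3 is the highest at 33.6; the diamonds of Kcnj11 and Abcc8 lie far to the left of the control range, and that of Kcnip2 far to the right.

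The 68 members that were not tested carried few reads. Of the 52 with any read, 24 had 1 to 10 reads over the 10 libraries and 28 had more, among them Kcnh8 with 92 and Kcnip4 with 90. Kcnq1, whose locus lies in the imprinted cluster of Cdkn1c, had none, which again allows up to 0.109 CPM over all libraries. Without the filter on low counts, 9 of the 118 members with a read were called higher (7.63%, beside 2.64% of 26537 genes) and 2 lower (1.69%, beside 0.98%). The added genes included Kcnh1, Kcnt1, Kcnc4, Kcnj12, Kcnj6 and Cacng3. Kcnj6, the G-protein-gated pore Kir3.2, had 10, 3 and 6 reads in cKO and 0 to 1 in controls. Kcnt1, the sodium-activated channel Slack, had 7, 17 and 21 reads in cKO and 0 to 14 in controls. Kcnj12, by contrast, had 28, 5 and 0 reads in cKO and 0 to 6 in controls, so that its call rested on cKO 1.

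A list of 44 partner genes outside the rule, the accessory subunits, scaffolds, pumps and cotransporters that act with these channels, had 35 tested genes. edgeR called 6 higher (17.1%, beside 2.27% of all tested genes) and 0 lower (beside 0.883%). At an unadjusted p under 0.05, 10 were higher and 2 lower, beside 9.25% and 7.11% of all tested genes. These shares are counts over a list drawn up with earlier results of these data known, and were not tested. DESeq2 and limma-voom also called 0 lower, while edgeR called Slc8a1 and Stac2 lower with no filter on low counts and Slc8a1 lower without cKO 1. The median log2 fold change of the 35 was 0.20. Cacna2d2, an extracellular calcium channel subunit, was at 17.5, 6.30 and 14.0 CPM in cKO and at 0, 1.47 and 5.71 CPM (lowest, median and highest) in controls. The groups did not overlap, and the log2 fold change was 2.503 (SE 0.52, edgeR adjusted p = 0.0086). Slc12a5, the chloride exporter KCC2, was at 8.77, 14.2 and 5.94 CPM in cKO and between 0.324 and 3.49 CPM in controls, again without overlap. The log2 fold change was 2.00 (SE 0.43, edgeR adjusted p = 0.013).

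Gem, a small GTPase that inhibits calcium channels through their beta subunits, was at 30.7, 24.0 and 37.3 CPM in cKO and between 8.43 and 18.7 CPM in controls, without overlap. It rose by a log2 fold change of 1.31 (SE 0.28, edgeR adjusted p = 0.015). Atp1b1, a beta subunit of the sodium pump, was at 149, 55.9 and 115 CPM in cKO and between 26.9 and 58.9 CPM in controls, where cKO 2 overlapped. Its log2 fold change was 1.23 (SE 0.27, edgeR adjusted p = 0.018). The counts used hold 59.3% of the Atp1b1 reads counted on either strand, so its level is uncertain; with the strand columns summed the log2 fold change was 1.28. Cntnap2, which clusters Kv1 channels, and Fam155a, a partner of the sodium leak channel, had log2 fold changes of 0.75 (SE 0.17, edgeR adjusted p = 0.021) and 0.89 (SE 0.23, edgeR adjusted p = 0.039), both without overlap. Without cKO 3 only 3 partners were called, Atp1b1 (adjusted p = 0.074), Cntnap2 (0.11) and Gem (0.077) being lost. Fam155a lost its call in 8 of the 10 fits that left out 1 library, with adjusted p up to 0.12. Without cKO 2, Slc12a5 averaged under 10 reads and was not tested. Without cKO 1, Cacna2d2 (adjusted p = 0.066) and Atp1b1 (0.13) were lost as well.

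**Figure D5:**
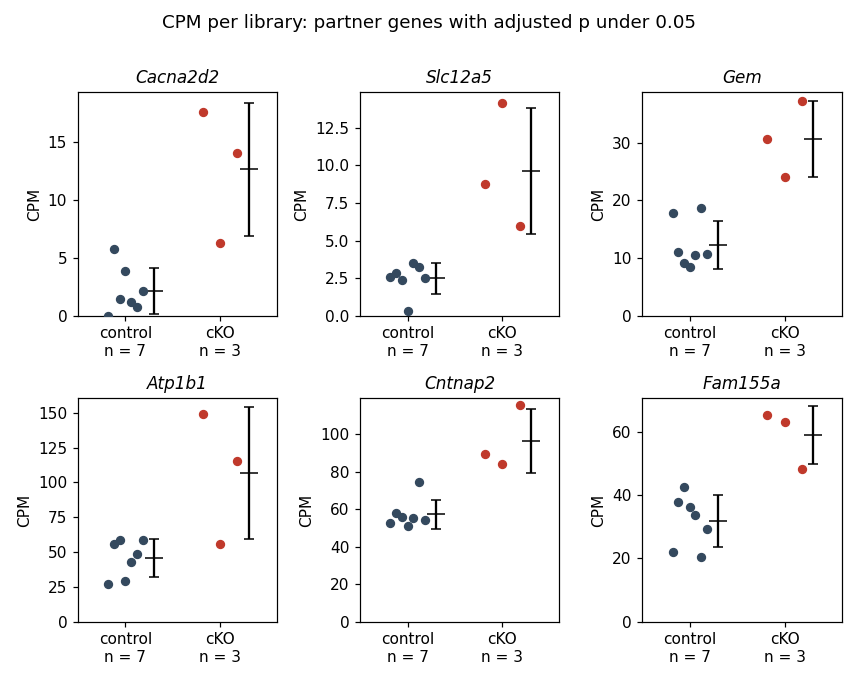
CPM of the 6 called partner genes in each library (points; 7 control, 3 cKO) with the mean and SD of each group (black bar and whiskers), on linear axes from 0. All cKO points lie above the controls except for Atp1b1, where cKO 2 at 55.9 CPM lies among them.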

How the data were processed

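RNA was measured by Smart-Seq2 in 10 libraries. The authors merged technical replicates, aligned reads to GRCm38 with STAR 2.5.0c (bedtools 2.26.0 is also named in the submitters' processing notes), kept unique alignments and deposited raw counts per Gencode gene, with no normalization. The column that ignores strand was used, since 50.3 to 50.5% of the reads counted by strand fell on 1 strand. It leaves out reads shared by overlapping genes, so such genes are counted too low. For 4 tested members (Kcnk2, Cacnb4, Kcnmb4, Cacna1d) the strand columns summed to over 1.2 times these counts, as they did for Cdkn1c and the partner Atp1b1. No exon of the 4 called members overlaps an exon of another counted gene, and introns were not compared. PCR reads are not molecules, so limits from counts cover counting error only.

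Symbols, positions and exon lengths came from GENCODE M21: of 53379 rows, 50604 matched with the version, 2670 without it and 105 did not match. The 11551 genes averaging 10 reads or more were compared with edgeR 4.0.16 in R 4.3.3 (TMM, estimateDisp, glmQLFit with legacy = FALSE, glmQLFTest, genotype only), which was tested on simulated data. The biological coefficient of variation from edgeR's common dispersion was 28.3%. The log2 fold changes given are edgeR's shrunken values. Standard errors are the absolute unshrunken log2 fold change over the square root of F. Intervals are centred on the unshrunken value and use the t distribution with edgeR's degrees of freedom. Replicates are single embryos; pairs within a group differed by chi-square per degree of freedom of 4.93 to 23.8, so none was a duplicate. Alternatives were DESeq2 1.42.0, limma-voom (limma 3.58.1), other size factors, filters, strand columns, covariates and leaving out each library.

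Members, gene lists and the naming rule were chosen with earlier results of these data known. Named were members with an adjusted p under 0.05, then those with an unadjusted p under 0.05 up to 20, the 3 highest per kilobase and the most variable of each class, the KATP genes, Kcnq1 and called partners. The remaining members given by value, and those called without the filter, were named after their values were seen. A few genes are not reported here.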

Additional observations from a re-analysis of the deposited data

Results flagged for a closer look

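In 42 sets of 7 control values that were checked, 1 for each named gene with any read, 4 had a library farther from the others than Dixon's 95% limit allows, and chance alone flags about 1 in 20. Kcna2 was at 7.65 CPM in control 3 and at 0.714 to 3.24 CPM in the other controls. Kcnj8 was at 1.43 CPM in control 2, the library that held all of its reads, and at 0 in the others. Cntnap2 was at 74.4 CPM in control 6 and at 50.9 to 57.8 CPM in the others. Slc12a5 was at 0.324 CPM in control 4 and at 2.35 to 3.49 CPM in the others.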

How the results depend on the processing

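Over 18 alternatives for 41 named genes, 689 of 735 values kept their direction and their side of the threshold, 23 lost the call, 4 gained it and 19 changed sign. Cdkn1c (log2 fold change -4.07 to -3.37), Kcnip2 and Abcc8 kept their calls under all 18, and Kcnip2 and Abcc8 ran from 1.698 to 2.28 and from -2.73 to -1.64. With no low-count filter 9 channel genes were called higher and 12 partners were called, 10 higher and 2 lower. Leaving out 1 library gave 1 to 3 channel genes higher (1 without cKO 3), 1 to 2 lower (1 without cKO 1) and 3 to 7 partners (3 without cKO 3). Deviations of log CPM from the group mean correlated at 0.041, -0.10 and -0.21 between same-numbered cKO and control libraries, so the numbers show no pairing. With the replicate block, edgeR called 1 channel gene lower and 0 partners (10 at an unadjusted p under 0.05). Cacng5 and Kcnj11 were then at edgeR adjusted p of 0.051 and 0.066, while Cacng3 was called higher (2.67, edgeR adjusted p = 0.0064). The median log2 fold change of the members ran from -0.087 to 0.18. The cause of these changes was not tested.

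None of the genes that changed sign was called in any fit. With the block, Cacng2 was at -0.18, Hcn4 at -0.012 and Kcna3 at -0.32. With the percentage of reads off genes as a covariate, Cacng4 was at -0.022, Cacng2 at -0.0096 and Hcn4 at -0.040. Leaving out 1 library, Scn1a ran from -0.070 to 1.24, Cacng4 from -0.37 to 0.30, Cacng2 from -0.025 to 0.084, Kcnu1 from -0.48 to 0.80, Hcn3 from -0.90 to 0.26, Hcn4 from -0.57 to 0.50, Kcnj3 from -0.32 to 0.12, Kcnip1 from -0.041 to 0.41 and Kcna3 from -0.071 to 0.53. Kcna2 gave no value without cKO 2 or control 3, and Slc12a5 none without cKO 2, where they fell below the filter. Of the members, 68 averaged under 10 reads, 16 of them with none, and were outside the main test; the intervals of 48 of the 66 tested members reached a 2-fold change.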
